A study of Mus musculus with 2 samples.

Results

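Mir99a, Mir99b, Mir100, Mir125a, Mir125b-1 and Mir125b-2 are the microRNA genes that stand beside a let-7 gene in 3 paralogous clusters of the mouse genome. They were chosen by their GENCODE M21 gene names and not by any measured value, and they are 6 of the 2202 microRNA genes in the count tables. MicroRNA-seq had been run on total RNA of the left cerebral cortex, taken at 36 days of age from 2 females of the hybrid strain B6CASTF1/J. The labels number the 2 animals separately and call them biological replicates, under a single donor code, and name no treatment, transgene or second tissue, so there was 1 group with n = 2 and no comparison between conditions. Each mouse gave 1 library, so a difference between the mice cannot be told apart from a difference between library preparations, and p-values cover these 2 libraries.

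MicroRNAs are cut from a hairpin, whose 5p or 3p arm is loaded into an Argonaute protein and pairs with target messenger RNAs, mainly through its seed, bases 2 to 8. The mir-99 and mir-100 genes belong to the mir-10 superfamily and are known to repress Mtor, the growth-control kinase. The mir-125 genes are the vertebrate relatives of lin-4, which with let-7 times larval development in the worm; in neurons, miR-125a is known to repress the synaptic scaffold Dlg4 (PSD-95) and miR-125b the glutamate receptor subunit Grin2a. A mir-99 type, a let-7 and a mir-125 type hairpin follow each other in each cluster.

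The 5p arms are shown because they fix which reads can be given to a single gene. Sequences are RefSeq's for the GRCm38.p6 build, all 6 genes matched, and each is written 5′ to 3′ with the seed in capitals. The 3 genes of the mir-99 and mir-100 group share 1 seed, and the 3 mir-125 genes share another.
miR-99a-5p: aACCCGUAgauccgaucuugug
miR-100-5p: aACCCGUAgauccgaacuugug
miR-99b-5p: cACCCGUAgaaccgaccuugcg
miR-125a-5p: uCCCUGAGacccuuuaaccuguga
miR-125b-5p (from both Mir125b-1 and Mir125b-2): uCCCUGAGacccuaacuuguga

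Counted from 1 at the 5′ end, miR-100-5p differs from miR-99a-5p by U16A alone, and miR-99b-5p differs from miR-99a-5p by A1C, U11A, U16C and U21C. All of these lie outside the seed. The 24 bases of miR-125a-5p and the 22 of miR-125b-5p have their first 13 bases in common. The 3p arms part the 2 copies of mir-125b, which are shown for that reason.
miR-125b-1-3p: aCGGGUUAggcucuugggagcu
miR-125b-2-3p: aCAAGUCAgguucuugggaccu

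Over these 22 bases, miR-125b-2-3p differs from miR-125b-1-3p by G3A, G4A, U7C, C11U and G20C. Of the 11 distinct mature arms of the 6 genes, 10 occur in a single hairpin of the tables, and miR-125b-5p occurs in 2. The hairpins of Mir125b-1 and Mir125b-2 share a run of 24 bases that holds the whole 5p arm. A read within that run fits both places, and reads that fitted several places entered no gene count (50.9% of mapped reads in mouse 1 and 51.2% in mouse 2). How many of those came from mir-125b is not known from these tables, so the counts of Mir125b-1 and Mir125b-2 cover only reads that could be given to 1 copy. The other 4 hairpins share at most 16 bases with any other hairpin, the run between Mir99a and Mir100. The RefSeq table lists the mir-125 seed for 3 further genes, Mir351 (963 counts in mouse 1 and 999 in mouse 2), Mir6367 and Mir6394, both at 0 counts in each mouse.

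On mm10, Mir99a (ENSMUSG00000065530.1, chromosome 16, 77598936 to 77599000, plus strand) and Mir125b-2 (ENSMUSG00000065472.1, chromosome 16, 77646273 to 77646343, plus strand) lie in introns of the non-coding gene Mir99ahg, with Mirlet7c-1 between them. The 3′ end of the Mir125b-2 hairpin also overlaps an exon of C130023A14Rik. Mir100 (ENSMUSG00000093011.1, chromosome 9, 41531425 to 41531504, plus strand) and Mir125b-1 (ENSMUSG00000093354.1, chromosome 9, 41581926 to 41582002, plus strand) lie in introns of the non-coding gene 3110039I08Rik, around Mirlet7a-2. Mir125b-1 also lies within an exon of Gm28119, on the same strand, and Mir100 faces an exon of the opposite-strand gene Gm48742. Mir99b (ENSMUSG00000065396.1, chromosome 17, 17830188 to 17830257, plus strand) lies in an intron of Spaca6, a protein-coding gene known for sperm-egg fusion, and Mir125a (ENSMUSG00000065479.2, chromosome 17, 17830812 to 17830879, plus strand) overlaps an exon of it, with Mirlet7e between them. The chromosome 17 cluster is compact, at 692 bases from end to end, against 47408 bases on chromosome 16 and 50578 on chromosome 9.

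**Figure D1:**
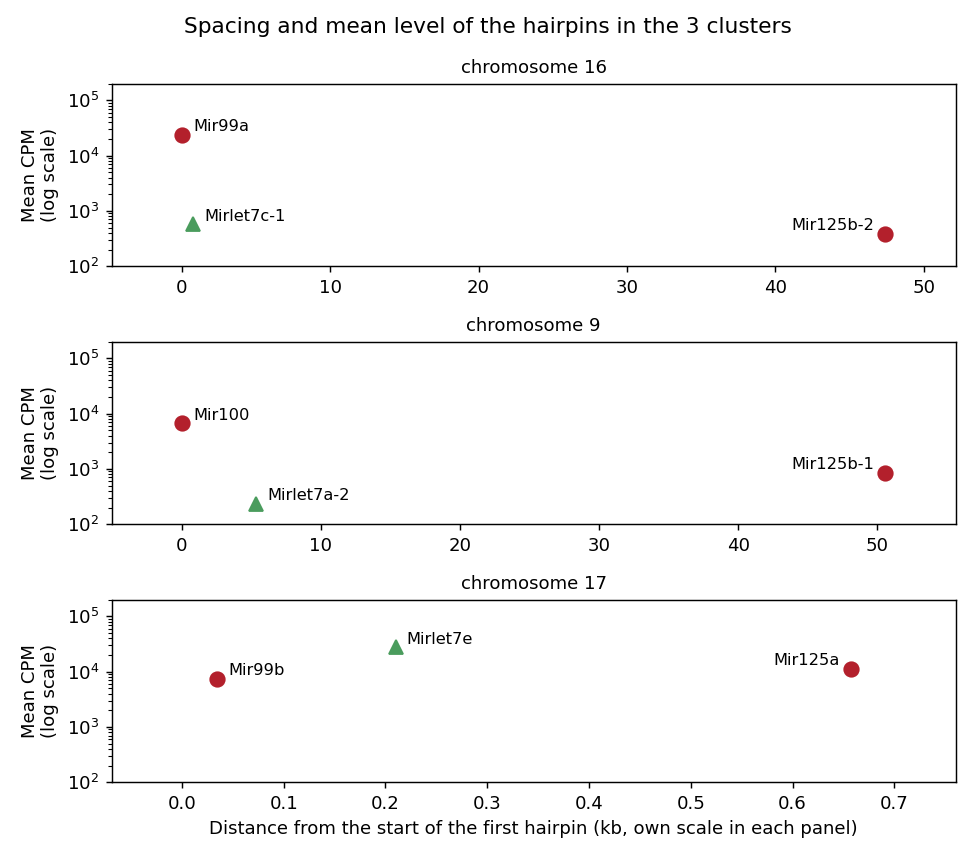
Mean CPM over 2 mice (log axis) of each hairpin against its distance from the start of the first hairpin of its cluster, in kb on a scale of its own in each panel; circles are the 6 members and triangles the let-7 genes. The mir-99 type gene is the highest on chromosomes 16 and 9, and Mirlet7e is the highest on chromosome 17. Counts of the let-7 and mir-125b genes on chromosomes 16 and 9 leave out reads that fit several places.

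Depth was 1930234 sense-strand gene counts in mouse 1 and 1863876 in mouse 2, and levels are in CPM, a gene's sense counts scaled to 1e+06 of these. A count of 0 allows up to 3 counts, or 1.55 CPM in mouse 1 and 1.61 in mouse 2; this floor and all intervals cover counting error only. As a check of the tissue, 8 of 12 neuronal marker genes were at 10 CPM or more in both mice, against 304 of all 2202 genes. Among the 8 was Mir128-1 (16282 and 17178 CPM), while the copies of Mir124a, whose mature sequence is shared, had at most 4 counts. The same limit was reached by 3 of 3 erythroid markers, 4 of 5 of choroid plexus and epithelium, and 1 of 1 of liver. Passing it therefore does not single out cortex. Of the 6 muscle markers, 4 (Mir1a-1, Mir133a-1, Mir133a-2 and Mir133b) were at 0 in both mice, Mir1a-2 had 0 and 1 count, and Mir206 had 74 and 47 counts (38.3 and 25.2 CPM). Oligodendrocyte, endothelial and mural markers were read as well. In such bulk tissue, more cells of a type cannot be told apart from more RNA per cell.

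All 6 genes reached 10 CPM in each mouse, as did 304 of the 2202 genes. Together they held 96427 counts in mouse 1 and 93644 in mouse 2, or 5.01% ± 0.0202 of sense counts (SD, n = 2). Their joint share thus hardly differed between the mice, while single genes differed in both directions. Across the 6, counted levels spanned 69.1-fold in mouse 1 and 56.9-fold in mouse 2, from Mir99a down to Mir125b-2. The low end leaves out reads within the run that Mir125b-2 shares with Mir125b-1, so the span of all reads is not known.

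Mir99a was the highest of the 6 in both animals. It had 36232 counts (18771 CPM) in mouse 1 and 52952 (28410 CPM) in mouse 2, a mean of 23590 ± 6816 CPM (SD, n = 2). It ranked 11 among all genes in mouse 1 and 9 in mouse 2. The other gene with a near-identical 5p arm, Mir100, had 10965 counts (5681 CPM) in mouse 1 and 14214 (7626 CPM) in mouse 2, a mean of 6653 ± 1376 CPM. Mir99b, the copy with the most different 5p arm, had 21373 counts (11073 CPM) in mouse 1 and 6693 (3591 CPM) in mouse 2, a mean of 7332 ± 5290 CPM. Mouse 1 was the high animal for Mir99b and the low animal for Mir99a and Mir100.

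Among the lin-4 relatives, Mir125a led. It had 25573 counts (13249 CPM) in mouse 1 and 17421 (9347 CPM) in mouse 2, a mean of 11298 ± 2759 CPM. Mir125b-1 had 1760 counts (912 CPM) in mouse 1 and 1433 (769 CPM) in mouse 2, a mean of 840.3 ± 101 CPM. Mir125b-2 had 524 counts (271 CPM) in mouse 1 and 931 (499 CPM) in mouse 2, a mean of 385 ± 161 CPM. Both mir-125b genes thus stood far below Mir125a in each mouse, but on counts that leave out every read lying within their shared run.

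**Figure D2:**
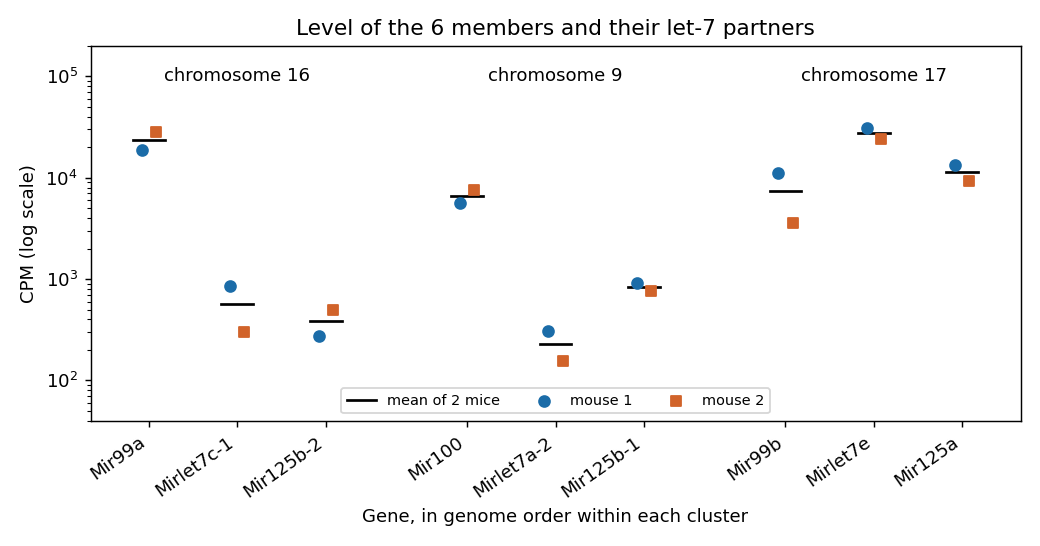
CPM (log axis) of the 6 members and the let-7 gene of each cluster, in genome order; circles are mouse 1, squares mouse 2, and lines the mean of both. Mir99a, Mir100 and Mir125b-2 sit higher in mouse 2, and Mir99b, Mir125a and Mir125b-1 sit higher in mouse 1.

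By mean level the order was Mir99a, Mir125a, Mir99b, Mir100, Mir125b-1 and Mir125b-2. With 2 animals no exact test of this order can pass the threshold, so the ranges of the mice were compared. Mir99a stood above Mir125a without overlap, by 1.42-fold in mouse 1 and 3.04-fold in mouse 2. The ranges of Mir125a and Mir99b overlapped, as did those of Mir99b and Mir100. In mouse 1 Mir99b was 1.95 times Mir100, and in mouse 2 it was 0.471 times Mir100, so these neighbours changed places between the animals. Mir100 stood above Mir125b-1 by 6.23-fold in mouse 1 and 9.92-fold in mouse 2, and Mir125b-1 stood above Mir125b-2 by 3.36-fold and 1.54-fold. For the mir-125b genes these ratios cover only reads that could be given to a single copy. CPM is not divided by length here, since the libraries were selected for short RNA; per 100 bases of hairpin (65 to 80 bases long) the order was the same, from 36293 CPM for Mir99a to 543 CPM for Mir125b-2.

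Grouped by seed, the mir-99 and mir-100 genes summed to 35524 CPM in the first mouse and 39627 CPM in the other. Within that sum, Mir99a made up 52.8% in mouse 1 (95% Wilson interval 52.5 to 53.2%) and 71.7% in mouse 2 (71.4 to 72.0%). Mir99b made up 31.2% (30.8 to 31.5%) in mouse 1 and 9.06% (8.86 to 9.27%) in mouse 2. Mir100 took the rest (15.7 to 16.3% in mouse 1 and 19.0 to 19.5% in mouse 2, Wilson intervals). The sum thus differed by 1.12-fold between the animals while its division among the 3 genes differed more. The mir-125 genes summed to 14432 CPM in the first mouse and 10615 CPM in the other. Mir125a made up 91.8% of that in mouse 1 and 88.1% in mouse 2, and Mir125b-1 and Mir125b-2 together came to 1183 and 1268 CPM. These are shares of reads given to a single gene, and the division of all mir-125 reads is not known here.

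**Figure D3:**
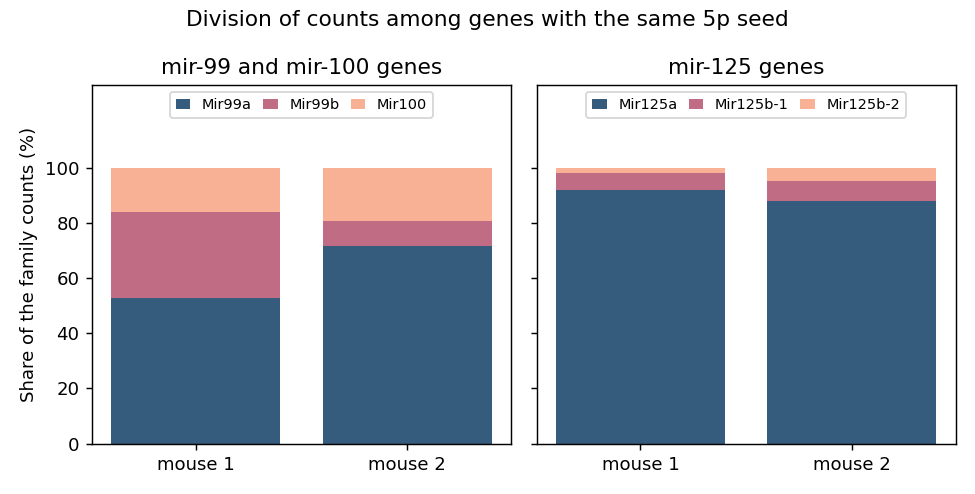
Share in percent of the counts of each seed group that fell to each gene, as stacked bars for mouse 1 and mouse 2. Mir99b goes from 31.2% in mouse 1 to 9.06% in mouse 2 while Mir99a goes from 52.8% to 71.7%; reads of miR-125b-5p that fit both copies are not in the mir-125 bars.

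Between the mice, Mir99b was the member furthest apart, 3.19-fold higher in mouse 1. Its log2 ratio of mouse 2 over mouse 1 was −1.67 (95% counting interval −1.71 to −1.63), with library sizes scaled by TMM (trimmed mean of M-values). Of the 324 genes at a mean of 10 CPM or more, 22 lay further apart than Mir99b in either direction. Mir125b-2 followed, 1.78-fold higher in mouse 2 (log2 ratio 0.83, interval 0.68 to 0.99). Mir99a (log2 ratio 0.55, interval 0.53 to 0.57) and Mir100 (0.38, interval 0.34 to 0.41) were also higher in mouse 2. Mir125a (−0.55, interval −0.58 to −0.52) and Mir125b-1 (−0.29, interval −0.40 to −0.19) were higher in mouse 1. The 2 copies of mir-125b thus lay on opposite sides, as did Mir99a and Mir99b.

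Each gene's pair of counts was tested with a two-sided exact binomial test adjusted by Benjamini-Hochberg over the 324 genes. It sets the counting error of one library against that of the other, and no condition. All 6 members passed it at an adjusted p of 0.05, the highest being 2.01e-08 for Mir125b-1, but so did 242 of the 324 genes (74.7%). With at least 2-fold required as well, 1 of the 6 passed, Mir99b (adjusted p under 1e-300 by the exact test), against 63 of 324 genes (19.4%). For genes higher in mouse 1 the background was 17 of 324 (5.25%), and for genes higher in mouse 2, where 0 of the 6 members passed, it was 46 of 324 (14.2%). The median log2 ratio of the members was 0.04 against 0.00 over all tested genes, and the median absolute log2 ratio was 0.55 against 0.53.

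Set against the spread between the libraries, the difference in Mir99b was no longer called. With the common biological coefficient of variation that edgeR estimated over both mice as 1 group (0.399), edgeR's exact test gave Mir99b an unadjusted p of 0.0499 and an adjusted p of 0.856. The same test gave adjusted p-values from 0.9998 to 1 for the other 5 members and called 2 of 324 genes (0.617%). These p-values rest on an assumed equal spread for all genes, estimated from the same pair of libraries. The differences between the mice are thus counted as spread before they are tested, so few genes could pass. The lost call therefore decides nothing about Mir99b.

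**Figure D4:**
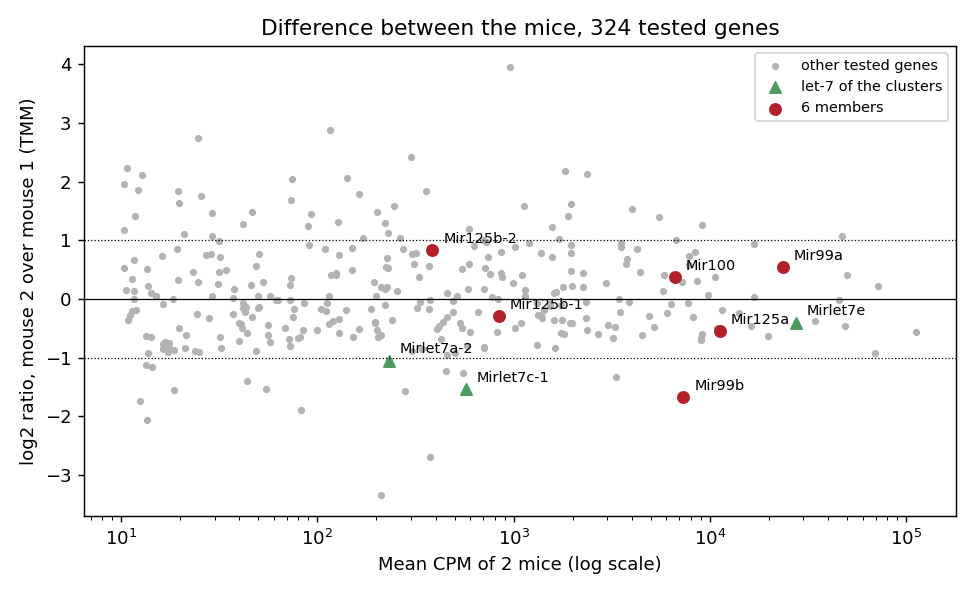
Log2 ratio of mouse 2 over mouse 1 (TMM-scaled) against mean CPM (log axis) for the 324 tested genes, with the 6 members as red circles, the let-7 genes of the clusters as green triangles, and dotted lines at 2-fold. Mir99b at −1.67 lies past the 2-fold line, and the other 5 members lie between −0.55 and 0.83.

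Over all tested genes the ratios fell weakly with the GC content of the whole hairpin, whose part in the members' differences was not tested. Mir99b had the highest GC content of the 6 hairpins, 67.1%, followed by Mir125a at 60.3%, and the others lay between 47.5% and 53.2%. Over the 324 genes the log2 ratio fell by 0.23 for each 10 percentage points of GC, a correlation across genes of −0.24 that is given as a description. With that linear trend removed the log2 ratio of Mir99b was −1.41 (interval −1.45 to −1.37), still past 2-fold, and that of Mir125a was −0.44. The ratio of Mir100 went from 0.38 to 0.19 and that of Mir125b-2 from 0.83 to 0.66, while Mir99a was at 0.48 and Mir125b-1 at −0.35. Marker genes differed too. The endothelial Mir126a had 11276 CPM in mouse 1 against 22380 in mouse 2, the summed mural markers 4589 and 9464 CPM, and the summed erythroid markers 742 and 153 CPM. The summed neuronal markers stood at 62618 and 102724 CPM, mostly through Mir132 (29894 and 64860 CPM), and the other 11 summed to 32725 and 37864 CPM, with Mir128-2, Mir138-2 and Mir9-3 among those lower in mouse 2. The oligodendrocyte markers stood at 2756 and 5128 CPM. The part of cell makeup in the members' differences was not tested.

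Genes of 1 cluster sit on the same strand of the same host, and their levels were compared within each mouse, which needs no scaling between libraries. How evenly the libraries captured different sequences was not tested, here or for the order of the members above. On chromosome 17 the level of Mir99b was 0.360 times that of Mirlet7e in mouse 1 and 0.149 times in mouse 2. Mir125a, at the other end of this cluster, was 0.431 times Mirlet7e in mouse 1 and 0.389 times in mouse 2. Mirlet7e itself had 59351 counts (30748 CPM) and 44824 (24049 CPM), a log2 ratio of −0.40. All 3 genes of this cluster were therefore higher in mouse 1, but Mir99b by 3.19-fold against 1.47-fold for Mir125a and 1.32-fold for Mirlet7e. The ratio of Mir99b to Mir125a differed between the mice by −1.12 on the log2 scale, and that of Mir125a to Mirlet7e by −0.15.

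On chromosome 16, Mir99a was 69.1 times Mir125b-2 in mouse 1 and 56.9 times in mouse 2, so both moved the same way. Mirlet7c-1 went the other way, with 1631 counts (845 CPM) in mouse 1 and 560 (300.4 CPM) in mouse 2, a log2 ratio of −1.54 that passed the exact test and 2-fold (adjusted p = 1.45e-119 by the exact binomial test). Mir99a was accordingly 22.2 times Mirlet7c-1 in mouse 1 and 94.6 times in mouse 2, and Mir125b-2 was 0.321 times Mirlet7c-1 in mouse 1 and 1.66 times in mouse 2. The 5p arm of Mirlet7c-1 also occurs in Mirlet7c-2, so its counts too leave out reads that fit both.

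On chromosome 9, Mir100 was 6.23 times Mir125b-1 in mouse 1 and 9.92 times in mouse 2. Mirlet7a-2, whose hairpin shares a run of 23 bases with Mirlet7a-1, had 595 counts (308 CPM) and 287 (154 CPM), a log2 ratio of −1.05 (adjusted p = 4.90e-25 by the exact binomial test). Mir100 was 18.4 times Mirlet7a-2 in mouse 1 and 49.5 times in mouse 2. By counts, the mir-99 type gene thus held most of its cluster on chromosome 16 (94.4% in mouse 1 and 97.3% in mouse 2) and chromosome 9 (82.3% and 89.2%). On chromosome 17 Mir99b held 20.1% and 9.71%, and Mirlet7e held 55.8% and 65.0%. The hairpin of Mirlet7e shares at most 17 bases with any other, against 23 for Mirlet7c-1 and for Mirlet7a-2. That of Mir125a shares at most 14, against 24 for Mir125b-1 and for Mir125b-2. The clusters' shares are therefore not on an equal footing.

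Strand mattered for a partner of the members and not for the members. The sense and unstranded counts of all 6 were the same, and each had 0 opposite-strand counts in both mice. Mirlet7e had 0 unstranded counts in each mouse, and it faces the microRNA gene Gm25927 on the other strand. Mir100 also faces an opposite-strand gene, Gm48742, but kept the same counts in the unstranded and sense columns (10965 in mouse 1 and 14214 in mouse 2). Gm48742 is annotated as a long non-coding RNA gene and not as a microRNA gene, the kind counted here, so the 2 overlaps are not alike.

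The related genes were the let-7 family with Mir98, the mir-125 seed gene Mir351, and Mir10a and Mir10b of the mir-10 superfamily, 15 genes of which all 15 were tested. Of these, 3 passed the exact binomial test and 2-fold, against 19.4% of all tested genes, with Mirlet7c-1 and Mirlet7a-2 higher in mouse 1 and Mir10b higher in mouse 2. Mir10b passed on few reads, 22 counts in mouse 1 and 74 in mouse 2 (log2 ratio 1.75, interval 1.05 to 2.51). Mir10a had 19 and 24 counts. This branch of the superfamily, known from the Hox clusters, thus stood at 9.84 and 12.9 CPM (Mir10a) and at 11.4 and 39.7 CPM (Mir10b), while Mir99a, Mir99b and Mir100 had at least 3591 CPM in either mouse. Mir351 stood at 499 and 536 CPM, in the range of the mir-125b genes. The counts of those genes leave out every read within their shared run, so their levels cannot be ranked against Mir351. The median log2 ratio of the 15 genes was −0.03, and the 12 let-7 family genes together held 27.8% of sense counts in mouse 1 and 23.8% in mouse 2, against 5.00% and 5.02% for the 6 members. Both are shares of reads given to a single gene. How many reads that fitted several places came from either set is not known here.

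For each member the gene nearest in level was taken, as the smallest Euclidean distance of log2(CPM + 1) over the 2 mice, which says only that levels in 2 animals were alike. For Mir125a it was Mir330 (12576 and 9227 CPM, distance 0.0775), and for Mir100 it was Mir379 (6329 and 8021 CPM, distance 0.172). Mir376c was nearest to Mir125b-2 (distance 0.195) and Mir326 to Mir125b-1 (distance 0.205). Mir99a was nearest to Mirlet7e (distance 0.751), and Mir99b to Mir383 (5930 and 4421 CPM, distance 0.949), which differed less between the mice than Mir99b did. The nearest gene to Mir99b was thus further off than that of any other member.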

How the data were processed

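MicroRNA-seq libraries from the left cortex of 2 mice were analysed as 1 group. The deposited values are whole-number read counts per gene, made on mm10 with GENCODE M21, per the submitters' README notes. The sources used here do not give the aligner, counter or trimming. The tables have no header, and the columns were read from their values as unstranded, sense and opposite-strand counts. The 4 lines that name no gene (72.7% of reads in mouse 1 and 70.2% in mouse 2) stayed out of library sizes and tests. The hybrid's CAST alleles may have cost reads that differ from the reference, which was not tested.

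From the sense counts, CPM, TMM factors (edgeR 4.0.16), exact binomial tests (SciPy 1.17.1) with Clopper-Pearson intervals, and Benjamini-Hochberg adjustment over 324 genes were computed. A quasi-likelihood test was not possible, since 1 library per mouse leaves no residual degree of freedom. DESeq2 1.42.0 gave alternative size factors. Hairpin sequences came from M21 transcripts and were compared with the other microRNA hairpins of the tables, on both strands. Only the mature arms were searched in other M21 transcripts, and no match against the whole genome was made. Mature sequences and seeds are RefSeq's.

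The members, lists and tests were chosen with earlier results of these data known. The genes named were the 6 members, the let-7 gene of each cluster, the related genes and the nearest gene to each member; Mir6367 and Mir6394 were named for their seed, and marker genes after their values were seen. Of 38 listed marker symbols, 37 were in the tables. The microglia and leukocyte markers summed to 1640 and 1472 CPM in mouse 1 and mouse 2, mostly Mir150 (1531 and 1264 CPM), while Mir142 (48.2 and 136.8 CPM) and Mir223 (5.70 and 11.8 CPM) were higher in mouse 2. Other sums were 742 and 680 CPM for choroid plexus and epithelium, 45.6 and 40.2 CPM for liver, and 38.3 and 25.8 CPM for muscle.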

Additional observations from a re-analysis of the deposited data

How the results depend on the processing

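The members' share of sense counts, 5.01%, was 5.41% with unstranded counts, where Mirlet7e and other genes drop out of the total, 4.89% over the 4 members that share no run of 20 bases with another hairpin, and 2.03% of all mapped reads. All 6 were detected at 1, 10 and 100 CPM, in unstranded counts and in each mouse alone. Exactly 1 member, Mir99b, passed the exact test and 2-fold with DESeq2 size factors, total counts, no filter, a filter at 100 CPM, unstranded counts and the GC trend removed, with log2 ratios from −1.68 to −1.41. Of all genes, 62 of 324 passed with DESeq2 size factors, and 67 of 324 with total counts and also with the GC trend removed. Unstranded counts gave 62 of 308, the 100 CPM filter 36 of 207, and no filter 71 of 722. With edgeR's exact test and the common dispersion, chosen after seeing the data, 0 members and 2 of 324 genes passed, and 1 member and 17 genes had an unadjusted p under 0.05. Of 42 recomputed member ratios 41 kept their direction and stayed called or uncalled as before, 0 reversed, and 1, Mir99b under that test, lost its call. The other members were uncalled in the main setting and had no call to lose. Under edgeR's exact test their adjusted p-values rose to at least 0.9998. That test counts the differences between the mice as spread, so few genes could pass and the lost call decides nothing. The log2 ratio of Mir125b-2 to Mirlet7c-1 was −0.45 over both mice, 0.73 without replicate 1 and −1.64 without replicate 2, the cause of which was not tested. No unstranded ratio to Mirlet7e exists, since it has 0 such counts. No paired analysis was possible because there is 1 group. Depth limits the related and marker genes with few or 0 counts, among them Mir10a, Mir10b, Mir6367, Mir6394 and the Mir124a copies.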
